A study of Mus musculus with 6 samples.

Results

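The heparan sulfate 3-O-sulfotransferases are a family of 7 mouse genes, Hs3st1, Hs3st2, Hs3st3a1, Hs3st3b1, Hs3st4, Hs3st5 and Hs3st6, chosen here by name. The array values carried 6 of the 7, with 1 probe set each out of 1246 probe sets in all, and Hs3st4 was not analysed here. None of them differed detectably between diabetic and wildtype liver: all 6 differences lay between -0.14 and 0.11 on the log2 scale, and the groups overlapped for each gene. Over all probe sets, only 0.321% were called (limma adjusted p under 0.05), and the groups did not overlap for 7.87%. Counts of 0 among 6 members are thus close to the background. Hs3st6 was the only member whose probe set lay above the array median, on 6 of 6 arrays, and the other 5 lay below it on every array.

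The study compared liver RNA of 3 male mice with insulin-deficient diabetes and 3 healthy male wildtype mice, 1 sample per array, to ask whether enzymes of glycosaminoglycan synthesis were lower in diabetes. Total RNA was extracted with Trizol, labelled with biotin and hybridised to an Affymetrix array. The labels name neither the cause of the diabetes nor the strain, the age or any pooling of animals. Both groups are whole liver, so fewer cells of a type and less RNA per cell cannot be told apart in any value below.

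Heparan sulfate is a long sugar chain carried by proteoglycans of the cell surface and the matrix. While the chain grows in the Golgi, it is first N-sulfated, then epimerised and sulfated at the 2-O and 6-O positions, and the 3-O-sulfotransferases act late, adding a rare sulfate to the glucosamine. All of these steps draw on the donor PAPS. The 3-O-sulfate is best known for completing the site to which antithrombin binds, and the isoforms differ in the chain sequences they accept: some make antithrombin-binding sites, and others make sites for glycoprotein D of herpes simplex virus. Proteoglycans of the hepatocyte surface take part in clearing lipoprotein remnants from plasma.

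The values are log2 signals after RMA, the authors' background correction, normalization between arrays and summary of each probe set, and a difference of 1 is a doubling. Levels on the array ran from 2.03 to 13.45, with array medians between 4.93 and 5.06. Of 10 hepatocyte markers listed, 6 were measured and all 6 lay above the median probe set, with Asgr1, the asialoglycoprotein receptor subunit, at 12.32 ± 0.14 in wildtype and 12.32 ± 0.04 in diabetic liver (SD, n = 3 per group). The markers were not all steady: Mbl2, a mannose-binding lectin, was the 1 called of the 6 (difference 1.03, limma adjusted p = 0.0412, and 0.142 with the replicate block), against 0.321% of all probe sets. Mbl2 was 11.06, 11.15 and 11.47 on wildtype arrays 1 to 3 and 12.16, 12.34 and 12.26 on diabetic arrays 1 to 3. Igfals, which stabilises IGF complexes in plasma, differed by -0.61 and Mbl1, the other mannose-binding lectin, by 0.27, and neither passed (limma adjusted p = 0.928 for both). The groups did not overlap for Mbl2 and Igfals, 2 of the 6, against 7.87% of all probe sets. Mbl2, Igfals and Mbl1, 3 of the 6, had an unadjusted limma p under 0.05, against 2.97% of all probe sets. Igfbp1, a liver gene repressed by insulin, was 6.26, 6.50 and 10.09 on wildtype arrays 1, 2 and 3 and 10.65, 8.90 and 11.52 on diabetic arrays 1, 2 and 3. The array labelled wildtype 3 thus lay within the diabetic range for Igfbp1, and so it did for Angptl4, the lipoprotein lipase inhibitor. Angptl4 was 10.41 there, against 8.72 and 8.81 on the other wildtype arrays and 9.67 to 10.59 on diabetic ones. Replicate number 3 was the highest array of each group for both genes, though Angptl4 was 10.59 on diabetic 3 and 10.57 on diabetic 1. The labels do not say what a number stands for. Because of these 2 genes, differences without wildtype 3 are given too for the 3-O-sulfotransferases and for Papss2, a gene of sulfate donor supply. All other genes, Mbl2 among them, are given with wildtype 3 only.

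Hs3st1 makes the antithrombin-binding type of chain. Its signal was 3.03, 2.89 and 3.01 on wildtype arrays 1 to 3 and 3.01, 3.10 and 2.81 on diabetic arrays 1 to 3. The diabetic arrays held both the highest and the lowest value, so the wildtype values lay inside the diabetic range. The means were 2.98 ± 0.08 and 2.97 ± 0.15, a difference of -0.0036 (SE 0.10, 95% confidence interval -0.25 to 0.24; limma adjusted p = 0.994, exact two-sided permutation p = 0.9). This probe set was dim: between 6.66% and 11.4% of the probe sets of an array were dimmer. No detection call was used, so a value this low was not separated from background.

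Hs3st5, which makes antithrombin-binding as well as glycoprotein D-binding sites, gave the dimmest probe set of the family on each array. Its signal was 2.86, 2.69 and 2.54 on wildtype arrays 1 to 3 and 2.64, 2.78 and 2.69 on diabetic arrays 1 to 3. All diabetic values fell between the highest and the lowest wildtype value. The means were 2.70 ± 0.16 in wildtype and 2.70 ± 0.07 in diabetic liver, a difference of 0.0046 (SE 0.10, 95% confidence interval -0.24 to 0.25; limma adjusted p = 0.994, exact permutation p = 1). Between 4.09% and 7.62% of the probe sets of an array were dimmer.

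The isoforms Hs3st3a1 and Hs3st3b1 make glycoprotein D-binding sites, and their genes lie on the same chromosome with 1 protein-coding gene, Cox10, between them in the RefSeq table. Hs3st3a1 was 3.65, 3.43 and 3.57 on wildtype arrays 1 to 3 and 3.86, 3.79 and 3.34 on diabetic arrays 1 to 3. Diabetic 1 and diabetic 2 lay above every wildtype array, while diabetic 3 was the lowest of all. The diabetic SD of 0.28 compared with 0.11 in wildtype, and the range over the 6 arrays, 0.52, was wider than that of 68.8% of all probe sets, the widest in the family. The difference of 0.11 (SE 0.15, 95% confidence interval -0.26 to 0.48) did not pass (limma adjusted p = 0.975, exact permutation p = 0.6). Without diabetic 3 it was 0.27 (limma adjusted p = 0.964), and without diabetic 1 it was 0.012.

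Diabetic 3 was also the lowest array for Hs3st1, and 4 of 6 measured macrophage markers, Csf1r, Adgre1, Siglec1 and Clec10a, were highest there. Siglec1 was so by a slight margin, 4.88 against 4.84 on wildtype 3. Of all probe sets, 20.3% were highest on diabetic 3. On that array Csf1r was 7.50, where the others ran from 6.23 to 6.85, and Adgre1 was 5.18, where they ran from 3.81 to 4.32. Wildtype 3 was the highest of those others for both genes. The other 2 markers were not highest on diabetic 3: Cd74 was 7.94 on wildtype 3 and 7.31 on diabetic 3, and Clec4f was 6.07 on diabetic 2 and 6.03 on diabetic 3. Of 8 macrophage markers listed 6 were measured. Their log2 values summed to between 31.25 and 33.34 on wildtype arrays and between 30.48 and 34.53 on diabetic ones. A sum of log2 values is not a sum of signals. The dimmest of the 6, Clec10a, had group means of 3.48 and 3.51. Their part in the low Hs3st1 and Hs3st3a1 values was not tested.

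Hs3st3b1 was steadier than its neighbour, with values of 4.66, 4.73 and 4.48 on wildtype arrays 1 to 3 and 4.57, 4.64 and 4.59 on diabetic arrays 1 to 3. The diabetic values all lay between wildtype 3 and wildtype 1. Its range over the 6 arrays was 0.24, the narrowest in the family, and 22.9% of all probe sets had a narrower one. The means were 4.62 ± 0.13 and 4.60 ± 0.04, a difference of -0.021 (SE 0.09, 95% confidence interval -0.24 to 0.19; limma adjusted p = 0.99, exact permutation p = 0.9).

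Hs3st2, an isoform of the glycoprotein D-binding type known chiefly from brain, was 4.50, 4.63 and 4.37 on wildtype arrays 1 to 3 and 4.42, 4.50 and 4.61 on diabetic arrays 1 to 3. Here too the diabetic arrays lay inside the wildtype range. The difference was 0.016 (SE 0.10, 95% confidence interval -0.22 to 0.26; limma adjusted p = 0.99, exact permutation p = 0.9), with means of 4.50 ± 0.13 and 4.51 ± 0.10. Hs3st2 and Hs3st3b1 stood close to each other on the array's scale, 0.39 to 0.64 and 0.27 to 0.52 below the array median.

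Hs3st6, which also makes glycoprotein D-binding sites, gave the brightest probe set of the family on each array, 0.67 to 1.14 above the array median. Its signal was 6.071, 6.004 and 5.673 on wildtype arrays 1 to 3 and 5.76, 5.88 and 5.68 on diabetic arrays 1 to 3. Wildtype 1 and wildtype 2 lay above every diabetic array, and wildtype 3 lay below every diabetic array. The means were 5.92 ± 0.21 in wildtype and 5.77 ± 0.10 in diabetic liver, the largest difference of the family at -0.14 (SE 0.13, 95% confidence interval -0.44 to 0.16). It did not pass (limma adjusted p = 0.942, exact permutation p = 0.4). Without wildtype 3 the difference was -0.26 (SE 0.10, limma adjusted p = 0.784), and without wildtype 1 it was -0.064.

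**Figure D1:**
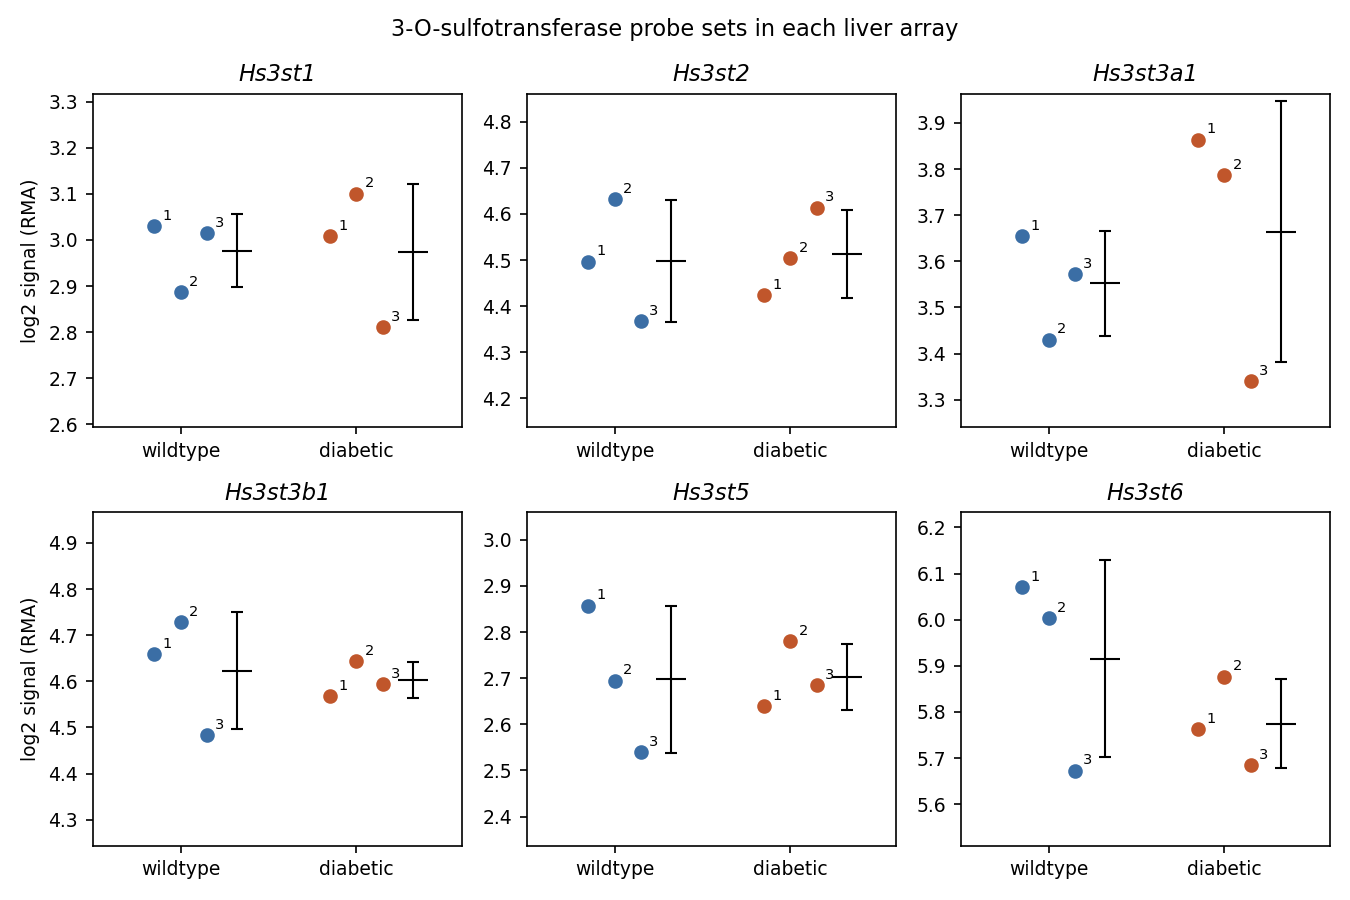
Log2 RMA signal (y axis, the same height of scale in each panel but at a different level) of the 6 measured 3-O-sulfotransferases on 3 wildtype and 3 diabetic arrays. Points are single arrays with their replicate number, and the bar beside each group is the mean ± SD; the groups overlap in every panel, and wildtype 3 is the lowest array for Hs3st2, Hs3st3b1, Hs3st5 and Hs3st6.

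Across the family, 0 of 6 members passed the limma threshold (adjusted p under 0.05 over all probe sets), where 0.321% of the 1246 probe sets did, all 4 of them higher in diabetic liver. The blocked limma fit, with replicate numbers as pairs, called 0 of the 1246. Among the members its adjusted p ran from 0.832 for Hs3st6 to 0.992 for Hs3st1 and Hs3st5. With limma, 0 of 6 members had an unadjusted p under 0.05, against 2.97% of all probe sets. An ordinary linear model without moderation called 0 of 6 members and 0 of the 1246 probe sets, so its count says nothing about the members. The groups did not overlap for 0 of 6 members, against 7.87% of all probe sets. With so small a share of calls over the whole array, a count of 0 among 6 members is close to the background. The median difference was 0.00047 over the members and 0.0020 over all probe sets. There were 3 higher and 3 lower means, but Hs3st1 turned higher after a shift to a common array median and with array weights, and Hs3st5 turned lower after quantile normalization.

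The confidence intervals set what could have been missed. For Hs3st1, Hs3st2, Hs3st3b1 and Hs3st5 they ran from 0.842-fold to 1.19-fold of wildtype. For Hs3st6 the interval ran from 0.735-fold to 1.12-fold, and for Hs3st3a1 from 0.836-fold to 1.40-fold. A change of 1 on the log2 scale lay outside the intervals of all 6 probe sets. A signal near background can hide a change in the transcript, and the 5 members below the array median were dim. No detection call was used for any member, Hs3st6 included, so all 6 intervals describe the probe signal.

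**Figure D2:**
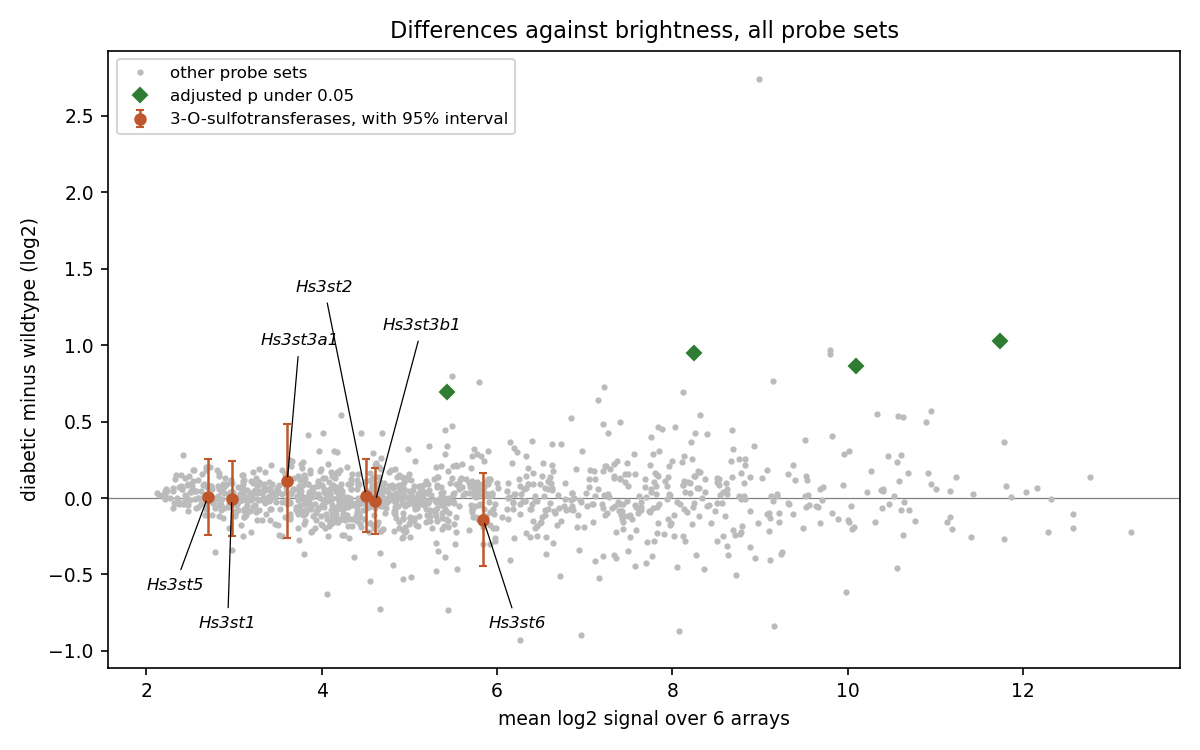
Difference between diabetic and wildtype liver (y axis, log2) against mean log2 signal over 6 arrays (x axis) for all 1246 probe sets. The 3-O-sulfotransferases (circles with 95% confidence intervals) lie near 0 and, except Hs3st6, in the dimmer part of the array; diamonds are the 4 probe sets past the limma threshold.

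Levels of different probe sets are not amounts of transcript, since each probe set binds its target with its own efficiency, and so the order of the isoforms is one of signal. Hs3st6 came first, Hs3st3a1 was in place 4, Hs3st1 in place 5 and Hs3st5 in place 6 on each of the 6 arrays. Hs3st3b1 was above Hs3st2 on 5 arrays and below it on diabetic 3, and their means over the 6 arrays, 4.61 and 4.51, differed by less than the wildtype SD of either. The probe sets of Hs3st1, Hs3st2 and Hs3st3a1 carry the suffix that marks probes shared by several transcripts, and those of Hs3st3b1, Hs3st5 and Hs3st6 do not.

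The lowest values of the family fell on 2 of the arrays, both with replicate number 3. Wildtype 3 was the lowest array for 4 of 6 members, Hs3st2, Hs3st3b1, Hs3st5 and Hs3st6, and it was the lowest array for 22.3% of all probe sets. Diabetic 3 was the lowest for the other 2, Hs3st1 and Hs3st3a1, against 13.0% of all probe sets. Without wildtype 3 the differences were -0.050 for Hs3st2, -0.091 for Hs3st3b1 and -0.074 for Hs3st5. They were 0.015 for Hs3st1 and 0.12 for Hs3st3a1, and limma called none of the 6 members. Over the 6 arrays Hs3st1 and Hs3st3a1 correlated at r = 0.86, and Hs3st3b1 correlated at r = 0.84 with Hs3st6 and 0.77 with Hs3st2. Hs3st1 and Hs3st2 ran at r = -0.69, and the neighbouring genes Hs3st3a1 and Hs3st3b1 at r = -0.17. These 15 pairwise correlations describe 6 arrays that share 1 normalization, and each gene's range over them was between 0.24 and 0.52.

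**Figure D3:**
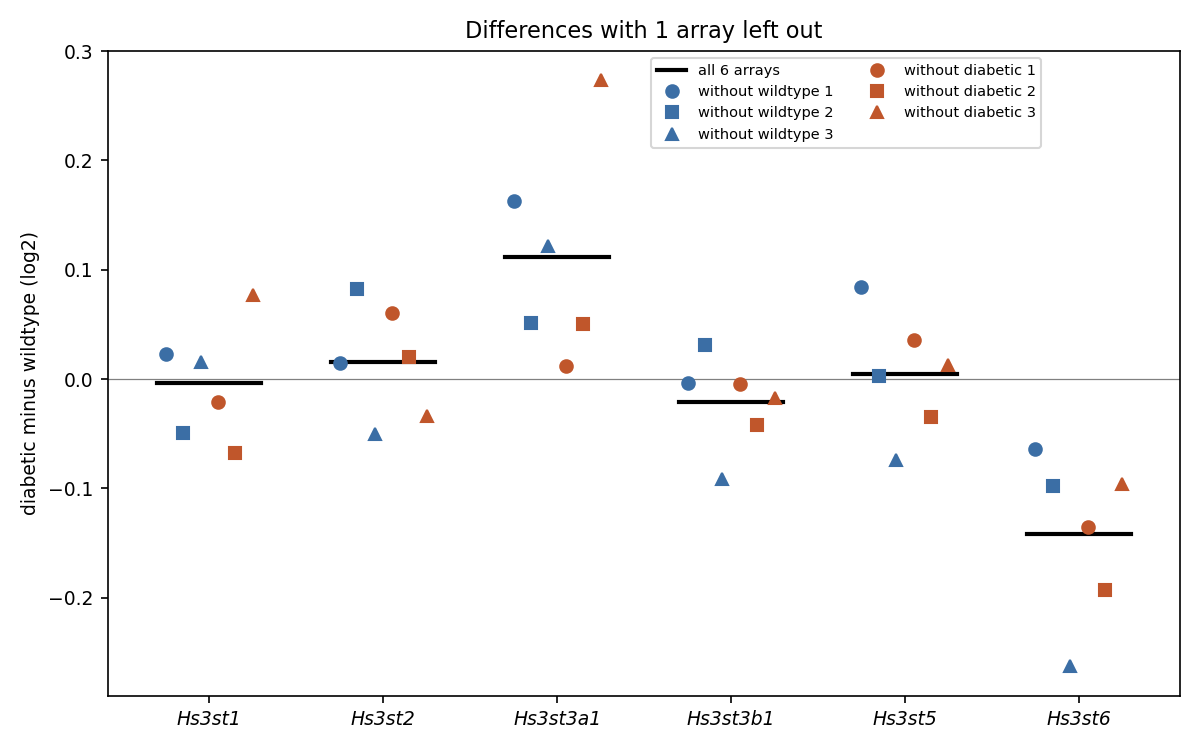
Difference between diabetic and wildtype liver (y axis, log2) for each 3-O-sulfotransferase with all 6 arrays (black line) and with each array left out in turn (symbols, named in the key). The differences of Hs3st1, Hs3st2, Hs3st3b1 and Hs3st5 cross 0 when single arrays are left out, Hs3st6 moves furthest without wildtype 3, to -0.26, and Hs3st3a1 without diabetic 3, to 0.27.

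Among the other 908 named genes, those with the most similar pattern over the 6 arrays were as follows, as a description. Hs3st6 was most like Igfbp2, an IGF-binding protein of plasma (r = 0.93), Idua, a lysosomal enzyme of heparan sulfate breakdown (r = 0.91), and the secreted signal Wnt5a (r = 0.91). Hs3st3b1 was most like Naglu (r = 0.96), another lysosomal enzyme of heparan sulfate breakdown, and Cog7. Hs3st2 was most like Il2rb (r = 0.98), Hexa and Galnt10, and Hs3st5 was most like Gpc2 (r = 0.95), Igf2bp3 and Sele. Gpc2, Igf2bp3 and Sele were dim, as Hs3st5 was, with mean levels of 3.19, 3.14 and 2.66. Hs3st3a1 was most like Dpm2 (r = 0.93), the tyrosylprotein sulfotransferase Tpst2 and Rab7, and Hs3st1 was most like Wnt4 (r = 0.97), Rab7 and Hs3st3a1. With 6 arrays, between 1 and 11 genes exceeded r = 0.9 for each member.

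The enzymes that act before 3-O-sulfation showed 0 of 9 calls, close to the background of 0.321% of all probe sets. There were 7 higher and 2 lower means, with a median difference of 0.023. Over all probe sets, 630 were higher and 616 lower. Hs6st2, a 6-O-sulfotransferase, was 2.44, 2.45 and 2.34 on wildtype arrays 1 to 3 and 2.61, 2.51 and 2.55 on diabetic arrays 1 to 3. Its probe set was dim, with 2.89% of all probe sets dimmer by mean level. The groups did not overlap for this 1 gene of the 9, a share near the 7.87% of all probe sets, and the difference of 0.14 did not pass (limma adjusted p = 0.928). Its relative Hs6st3 differed by -0.22 (95% confidence interval -0.57 to 0.12, limma adjusted p = 0.928). The N-deacetylase/sulfotransferases Ndst3 and Ndst4, both below the array median, differed by 0.026 and 0.0052. Glce, the epimerase, was the 1 member of these 9 with an unadjusted p under 0.05, and it did not pass after adjustment (difference 0.43, limma adjusted p = 0.928).

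The supply of the sulfate donor held the 1 call among these heparan sulfate lists, 1 of 3 measured genes. Over all 1246 probe sets, 0.321% were called. Papss2, a PAPS synthase, was 9.51, 9.68 and 9.79 on wildtype arrays 1 to 3 and 10.61, 10.52 and 10.44 on diabetic arrays 1 to 3. The groups did not overlap, and the difference of 0.87 passed (limma adjusted p = 0.0412), but not with the replicate number as a block (adjusted p = 0.215). The other measured donor genes, the synthase Papss1 and the PAPS transporter Slc35b3, differed by -0.13 and 0.08 and did not pass. Without wildtype 3, the highest wildtype array for Papss2, the difference was 0.93 (limma adjusted p = 0.0568), and the call was also lost without any other single array. Over its alternatives, which were added after the data had been seen, the adjusted p ran from 0.0257 to 0.485.

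Of 5 genes that remove sulfate or cut the chain, 4 were measured and 0 called, with 3 lower and 1 higher means. Sgsh, the lysosomal sulfamidase, differed by -0.25 (95% confidence interval -0.61 to 0.11), and the heparanase gene Hpse by 0.12. Of 13 core proteins that carry heparan sulfate, 12 were measured and 0 called, with 8 lower and 4 higher means and a median of -0.04. With 0.321% of all probe sets called, the 0 calls in both lists are close to the background. Sdc4, a cell-surface syndecan, was 11.21, 11.23 and 11.26 on wildtype arrays 1 to 3 and 11.08, 11.17 and 11.08 on diabetic arrays 1 to 3. The groups did not overlap for this 1 gene of the 12, again near the 7.87% of all probe sets, and the difference of -0.12 did not pass (limma adjusted p = 0.928). The largest differences of the list ran in opposite directions, 0.44 for the syndecan Sdc1 and -0.34 for the glypican Gpc4, and neither passed (limma adjusted p = 0.928 for both). Of 9 proteins reported to bind 3-O-sulfated chains, 2 were measured: the growth factor Fgf7 differed by 0.00088 and its receptor family member Fgfr1 by 0.046. The Fgf7 probe set was dim, with 4.17% of all probe sets dimmer by mean level. Antithrombin itself, Serpinc1, was not analysed here.

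**Figure D4:**
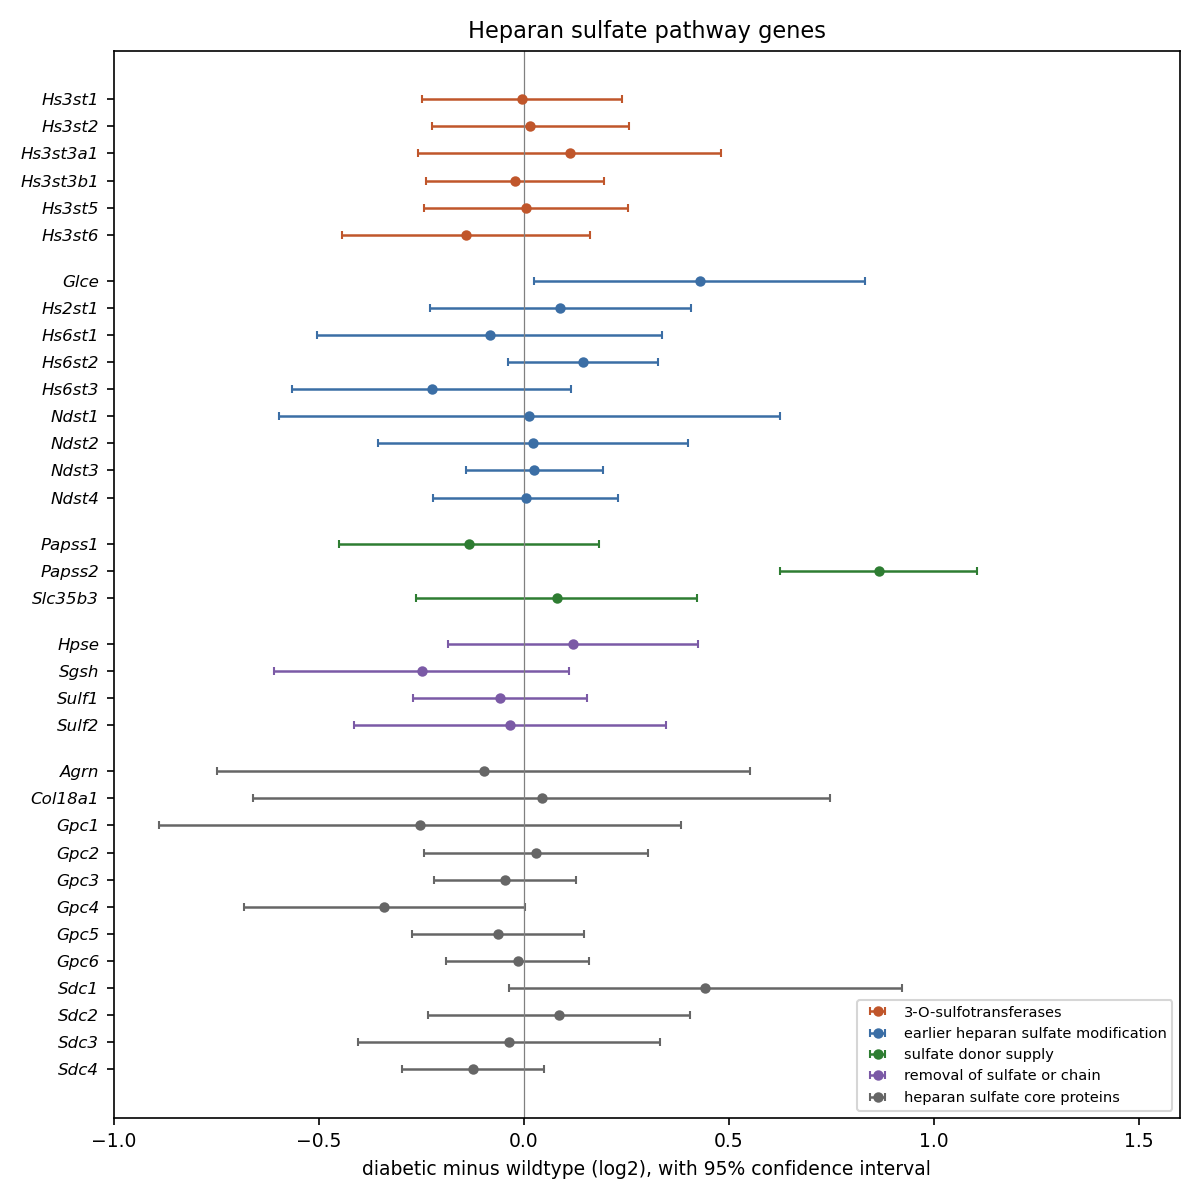
Difference between diabetic and wildtype liver (x axis, log2) with 95% confidence intervals for the 6 measured 3-O-sulfotransferases and the other heparan sulfate genes, 1 probe set per gene, coloured by role. Papss2, at 0.87, stands clear of 0, and the intervals of all 6 3-O-sulfotransferases include 0.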

How the data were processed

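The authors deposited 1 table of log2 values, made with RMA per the submitters' processing notes. No label gives the RMA version or settings; the log2 scale was read from the range of the values. Between-array normalization hides a change shared by most probe sets. Of 1246 probe sets, 984 carried a RefSeq accession and 963 were named (909 genes) through RefSeq's gene table of GRCm38.p6, used for names and gene neighbours only.

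The comparison of the 2 groups was fitted over all probe sets in limma 3.58.1 (R 4.3.3; lmFit, then eBayes), with Benjamini-Hochberg adjustment and a threshold of 0.05. The exact two-sided permutation test cannot go below 0.1 with 3 arrays against 3. If arrays did not come from separate animals, p-values measure only the spread between samples. The scripts were tested on simulated data.

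Deviations from the group means of same-numbered arrays correlated at 0.397, 0.138 and 0.162, all over 0.1, so the numbers were treated as pairs in a blocked fit; the labels do not say what a number stands for. Members and lists were chosen with earlier results of these data known. Text names all members, list members of any value, 2 insulin- or fasting-linked genes and the 3 most alike genes per member, of which 1 is not reported here. Marker lists of other cell types held 0 calls: 6 macrophage, 4 endothelial, 5 stellate and 5 lymphocyte genes measured. With 0.321% of all probe sets called, that is close to the background. The 5 cholangiocyte markers were not analysed here.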

Additional observations from a re-analysis of the deposited data

How the results depend on the processing

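The count of called 3-O-sulfotransferases was 0 under all 13 alternatives, and leaving out dim probe sets kept only Hs3st6. Where an alternative called 0 probe sets in all, the 0 among members was fixed in advance and says nothing about them. That held for the replicate block, the ordinary linear model, eBayes with trend and robust, and each single array left out except wildtype 3. Over all probe sets, 4 were called, against 0 under each of the replicate block, the ordinary linear model and eBayes with trend and robust, and between 0 and 1 with 1 array left out; the cause was not tested, beyond fewer samples in the last. Hs3st1 changed sign to 0.0034 after the median shift and 0.019 with array weights, and Hs3st5 to -0.035 after quantile normalization, all within their SE. With 1 array left out, differences ran from -0.067 to 0.077 for Hs3st1, -0.050 to 0.082 for Hs3st2, 0.012 to 0.27 for Hs3st3a1, -0.091 to 0.031 for Hs3st3b1, -0.074 to 0.084 for Hs3st5 and -0.26 to -0.064 for Hs3st6. The lowest adjusted p of any member under any alternative was 0.784. Each gene had 1 probe set, so averaging probe sets was not run. No detection call was used, so no member was separated from background, neither the 5 dimmer ones nor Hs3st6.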
